A study of Mus musculus with 8 samples.

Results

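Progranulin, encoded by Grn, and 8 other genes of the lysosome were followed in hippocampal RNA from 4 mice of the BTBR strain and 4 of the B6 strain, at every probe that the array files name for them. The 9 genes (Grn, Tmem106b, Ctsd, Ctsb, Ctsl, Psap, Hexa, Lamp1 and Lamp2) had 17 of the 41174 non-control probes on the array, and all 17 were among the 27982 probes tested. Grn was chosen by the rise of 1 of its 2 probes in this same contrast, so the values of both Grn probes are given as a description with no test. The other genes were taken by function, to see whether their transcripts were also higher in BTBR mice.

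The BTBR mice carried the genotype BTBR T+ Itpr3tf/J and the B6 controls were wild type C57BL/6J. All were untreated males of 5 months, and each array held RNA from the whole hippocampus of 1 mouse. The labels name C57BL/6J as strain background for the BTBR samples too, and the BTBR group was taken from their titles and genotype. BTBR and B6 are separate inbred strains that differ at many loci, so a strain difference cannot be assigned to a single allele. Both strains were present on each of 2 slides, with replicates 1 and 2 on slide 1 and replicates 3 and 4 on slide 2.

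Progranulin is a secreted glycoprotein made of repeated cysteine-rich granulin domains, and in the brain it is produced mainly by microglia and neurons. It is carried to the lysosome by the receptor sortilin or together with prosaposin, where cathepsins cleave it into granulins that support acid hydrolases. Partial loss of progranulin causes frontotemporal dementia and complete loss a lysosomal storage disease, and variants of TMEM106B, a lysosomal membrane protein, modify the risk in carriers.

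The finding on Grn rests on 2 probes of 60 bases, and their sequences are shown because they gave different answers. Both are on the plus strand of chromosome 11 in the coordinates of the array files (mm9), Grn 1 (A_52_P508750) at chr11:102294591-102294650 and Grn 2 (A_51_P192800) at chr11:102297692-102297751. They start at base 416 and base 1901 of the target transcript and their centers lie 3.1 kb apart in the genome. Capitals mark the longest stretch that is also found in any of the other 41172 probes on the array, on either strand.
Grn 1: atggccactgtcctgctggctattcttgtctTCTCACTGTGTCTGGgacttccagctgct
Grn 2: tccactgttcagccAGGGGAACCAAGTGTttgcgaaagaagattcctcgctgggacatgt
For both probes that stretch was 15 bases, in a probe of Traf3ip1 for Grn 1 and in a probe of Ctnnd1 for Grn 2. The GC content of the Grn probes was 53.3% and 51.7%, against a median of 40% over the array and 35% to 53.3% over the 17 member probes. Strain variants under the probes were not analysed here, and their part in any probe difference was not tested.

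On the arrays, 56.8% to 71.9% of the probes were well above background, with B6 replicate 1 the lowest. Each of the 17 member probes exceeded its background clearly on all 8 arrays (the scanner's well-above-background flag), and none was saturated. Marker lists of the tissue set some arrays apart before any strain comparison. The summed level of 18 thalamus probes (log2 of their summed intensity) was 17.35 in BTBR replicate 1 and 14.77 to 15.20 on the other arrays. The summed level of 10 choroid plexus probes was 17.71 and 17.60 in BTBR replicates 1 and 2, 16.09 and 15.85 in BTBR replicates 3 and 4, and 15.63 to 16.98 in B6 mice. Probes of 10 hippocampal genes were measured on every array, with a summed level of 16.89 to 17.46 in B6 and 16.27 to 17.47 in BTBR mice. In tissue RNA, fewer cells of a type and less RNA per cell cannot be told apart.

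At Grn 1, the normalized log2 intensity was 14.14, 14.95, 14.02 and 14.04 in B6 replicates 1 to 4. In BTBR replicates 1 to 4 it was 17.54, 17.14, 16.47 and 17.43. Every BTBR array was above every B6 array, and the means were 14.29 ± 0.45 for B6 and 17.15 ± 0.48 for BTBR mice (SD, n = 4 each). The difference was 2.86 on the log2 scale, a 7.25-fold higher intensity, and only 4 of the 27982 probes had a larger rise. It came to 2.80 within slide 1 and 2.92 within slide 2, and it lay between 2.73 and 3.08 when each array was left out in turn. Before normalization, the mean spot intensity ran from 15845 to 36173 in B6 and from 80825 to 193313 in BTBR mice, over a local background of 37.0 to 59.0.

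At Grn 2, the values were 13.001, 13.011, 13.107 and 13.065 in B6 and 13.209, 12.982, 13.258 and 13.035 in BTBR mice. The strains overlapped, with means of 13.05 ± 0.05 and 13.12 ± 0.13 (SD, n = 4 each) and a difference of 0.08, which was 0.03 to 0.12 when each array was left out. The 2 probes of the same gene therefore moved apart between the strains. Within an array, Grn 1 exceeded Grn 2 by 0.91 to 1.94 on the log2 scale in B6 mice (mean 1.24 ± 0.48, SD, n = 4). In BTBR mice the gap was 3.21 to 4.39 (mean 4.03 ± 0.55, SD, n = 4). The median over both probes, which would be read as a gene level, gave a difference of 1.47, a value that neither probe showed.

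**Figure D1:**
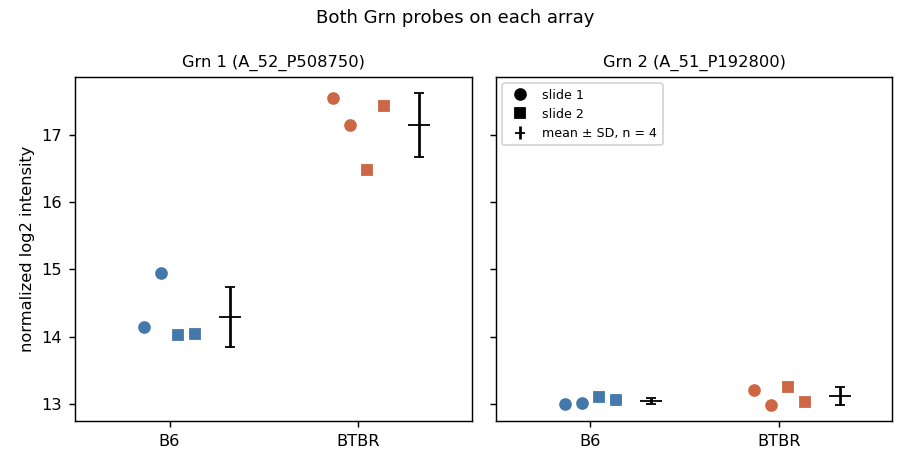
Normalized log2 intensity (y axis) of the 2 Grn probes on each array, by strain (x axis), with circles for slide 1, squares for slide 2 and the mean ± SD (n = 4) in black. Grn 1 lies between 16.47 and 17.54 in BTBR and between 14.02 and 14.95 in B6 mice, while Grn 2 overlaps between the strains.

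The spread of Grn 1 within a strain was also wide. Its pooled SD was 0.46 on the log2 scale, against a median of 0.13 over all probes tested and 0.12 over the other 15 member probes, and it was above that of 96.3% of the probes. The genes whose probes followed Grn 1 most closely over the 8 arrays were Syt10 (Pearson r = 0.994), Supt16 (r = 0.991), AK083204 (r = 0.990), Clasp2 (r = 0.990) and Shoc2 (r = 0.989). These r values mostly reflect the gap between the strains, and after removal of the strain means they were 0.92, 0.87, 0.94, 0.85 and 0.86 over the same arrays. Both sets of r and a higher level in BTBR mice follow from the way these probes were picked. Syt10, a synaptotagmin of calcium-dependent secretion, was 2.29 higher in BTBR mice on the log2 scale, and Shoc2, a scaffold of Ras signaling, was 1.40 higher at this probe and 0.61 higher by the median of its probes.

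None of the 15 probes of the 8 lysosomal members passed the test. Limma called 0 higher and 0 lower at an adjusted p under 0.05, while it called 7.61% of all probes tested (3.31% higher and 4.3% lower in BTBR mice). At an unadjusted p under 0.05 there was 1 member probe, higher in BTBR mice, against 18.5% of all probes in either direction and 9.1% in the higher one. The differences ran from -0.05 to 0.22 on the log2 scale, with adjusted p values from 0.216 to 0.985. The 95% intervals reached no higher than 0.58, a 1.5-fold rise, and no lower than -0.24, an intensity 0.845 times that of B6 mice, so larger shifts were outside every interval. The median difference was 0.08 with 12 of 15 probes above 0, and over all probes tested it was 0.01 with 53.3% above 0. With median centring in place of quantile normalization the member median was 0.017 with 9 of 15 above 0, and over the arrays left out in turn it ran from 0.019 (10 of 15, without BTBR replicate 1) to 0.13 (11 of 15, without BTBR replicate 3).

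**Figure D2:**
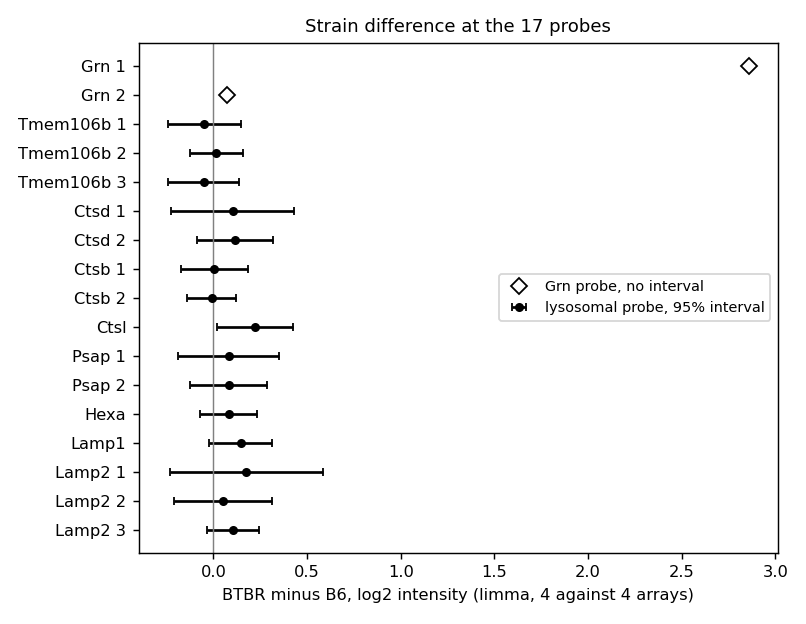
Difference between BTBR and B6 mice in log2 intensity (x axis) at each member probe (y axis), with 95% intervals from limma for the 15 lysosomal probes and open diamonds without interval for the 2 Grn probes. Grn 1 stands at 2.86 and every other probe lies between -0.05 and 0.22.

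The cathepsins that can process progranulin included the member with the smallest p. Ctsl, a cysteine protease able to cleave progranulin into granulins, measured 14.64, 14.67, 14.70 and 14.48 in B6 and 14.97, 14.96, 14.79 and 14.66 in BTBR mice. The 2 lowest BTBR arrays were those of slide 2, and BTBR replicate 4 lay inside the B6 range. The difference was 0.22 (SE 0.09, 95% interval 0.02 to 0.43), with an unadjusted p of 0.0337 and an adjusted p of 0.216 by limma. Over all alternatives the Ctsl difference stayed between 0.16 and 0.29, with adjusted p values from 0.0967 to 0.434.

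Ctsd is the main aspartic protease of the lysosome. Its brighter probe, Ctsd 1, measured 15.25, 15.52, 15.49 and 15.39 in B6 and 15.77, 15.76, 15.15 and 15.37 in BTBR mice, so BTBR replicates 1 and 2 were the highest arrays and BTBR replicate 3 the lowest. The difference was 0.10 (SE 0.14, adjusted p 0.779), and 0.017 to 0.224 when each array was left out. Ctsd 2, whose 60 bases span 154 bases of the genome and therefore cross a splice junction, differed by 0.12 (SE 0.09, adjusted p 0.569).

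Ctsb, a cysteine protease abundant in the brain, gave the differences nearest to 0. Ctsb 1 measured 16.29, 16.30, 16.27 and 16.19 in B6 and 16.31, 16.42, 16.09 and 16.24 in BTBR mice, a difference of 0.00 (SE 0.08, 95% interval -0.17 to 0.18). Ctsb 2 differed by -0.01 (SE 0.06, 95% interval -0.14 to 0.12).

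Psap encodes prosaposin, which accompanies progranulin to the lysosome and is the precursor of the saposins, cofactors of lipid hydrolases. Psap 1 measured 14.85, 15.17, 15.18 and 14.96 in B6 and 15.39, 15.12, 14.91 and 15.06 in BTBR mice. Only BTBR replicate 1 was above all B6 arrays. The difference was 0.08 at both Psap probes (SE 0.12 and 0.09, adjusted p 0.785 and 0.710).

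Hexa, the alpha subunit of beta-hexosaminidase, which degrades GM2 ganglioside, measured 13.46, 13.34, 13.46 and 13.51 in B6 and 13.49, 13.43, 13.57 and 13.61 in BTBR mice. Its arrays overlapped between strains, and the difference was 0.08 (SE 0.07, 95% interval -0.07 to 0.23, adjusted p 0.598).

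Lamp1 and Lamp2 are the main glycoproteins of the lysosomal membrane. Lamp1 measured 14.01, 14.10, 14.03 and 14.16 in B6 and 14.26, 14.35, 14.19 and 14.08 in BTBR mice, with 3 BTBR arrays above all B6 arrays. The difference was 0.15 (SE 0.07, 95% interval -0.02 to 0.31, adjusted p 0.351).

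The 3 Lamp2 probes, each with a different target transcript in the array files, differed by 0.18 (SE 0.18), 0.05 (SE 0.12) and 0.11 (SE 0.06). Lamp2 1 had the widest interval of the members. It measured 12.74, 12.79, 12.81 and 12.39 in B6 and 13.07, 13.26, 12.62 and 12.47 in BTBR mice, so the BTBR arrays of slide 1 were the highest and those of slide 2 lay inside the B6 range, and its difference was 0.039 to 0.303 when each array was left out. Lamp2 3 was the 1 probe of 15 with no overlap of the arrays of the strains, which was seen for 6.91% of all probes in the higher direction. It measured 9.36, 9.32, 9.17 and 9.25 in B6 and 9.37, 9.38, 9.38 and 9.40 in BTBR mice, and its adjusted p was 0.423.

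Tmem106b, the gene that modifies disease in progranulin deficiency, gave differences close to 0. Tmem106b 1 measured 15.69, 15.60, 15.68 and 15.82 in B6 and 15.57, 15.64, 15.54 and 15.86 in BTBR mice. The differences at its 3 probes were -0.05 (SE 0.09), 0.02 (SE 0.06) and -0.05 (SE 0.08), with adjusted p values of 0.833, 0.927 and 0.811. Of its paralogs, Tmem106c was 0.24 and 0.40 higher at its 2 probes and Tmem106a 0.00 at its single probe. Limma called 0 of the 3 (adjusted p 0.233, 0.238 and 0.992), against 7.61% of all probes. At an unadjusted p under 0.05 there were 2, against 18.5% of all probes.

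**Figure D3:**
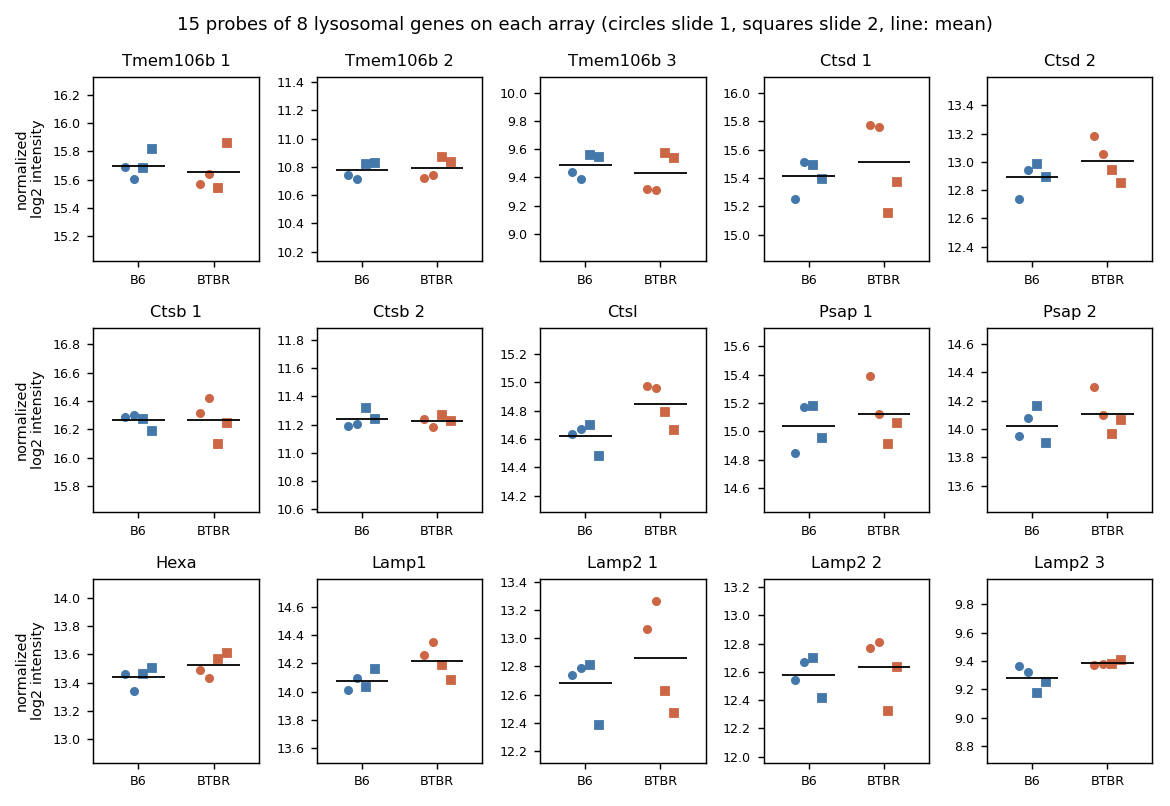
Normalized log2 intensity (y axis, each panel spanning the same range of log2 units) of the 15 probes of the 8 lysosomal members on each array, by strain (x axis), with circles for slide 1, squares for slide 2 and a line at the mean of 4 arrays. The BTBR arrays of slide 1 are the highest at Ctsd 1, Ctsd 2, Ctsb 1, Ctsl, Lamp1, Lamp2 1 and Lamp2 2, and the strains overlap at every probe but Lamp2 3.

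A two-sided exact permutation test over the 8 arrays was run on the brightest probe of each of the 8 members, where the smallest p that 4 against 4 arrays allow is 0.0286. The lowest exact p was 0.0857, for Ctsl and for Lamp1 (0.343 after Benjamini-Hochberg adjustment over the 8 tests). With 8 tests, a single gene could not reach an adjusted value under 0.229 here, so the unadjusted values carry the reading.

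The strain difference was also read on each slide. On slide 1, 13 of 15 member probes were higher in BTBR mice with a median of 0.18, and on slide 2, 6 of 15 were with a median of -0.03, while over all probes 53.4% and 50.8% were higher, with medians of 0.02 and 0.00. The sign was the same on both slides for 6 of the 15 member probes and for 56.8% of all probes. Ctsd 1 went from 0.38 on slide 1 to -0.18 on slide 2, and Lamp2 1 went from 0.40 to -0.05. The interaction of strain and slide was called by limma at 0 member probes (lowest adjusted p 0.462) and at 0 probes of the whole array, and at an unadjusted p under 0.05 it held for 1 member probe and for 9.93% of all probes. With 2 mice per strain on a slide, the slide and the individual mice cannot be told apart.

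Several members deviated together between arrays of the same strain. After removal of the strain means, the brightest probes of Ctsl and Lamp2 had a Pearson r of 0.96 over the 8 arrays (Spearman rho 0.98), those of Ctsd and Psap 0.83 and those of Ctsd and Ctsb 0.82. Hexa and Lamp2 went in opposite directions, with an r of -0.84. Over the 28 pairs of the 8 members the median r was 0.43 and 16 were above 0. These values are descriptions over 8 arrays that share labeling and normalization, and the slide was not removed. At Ctsl, Lamp2 1 and Ctsd 1 both BTBR arrays of slide 1 were above both of slide 2. Slide and mouse cannot be told apart in these r values. Grn 1 had an r of 0.65 with Psap, 0.59 with Ctsd, 0.58 with Ctsb, 0.28 with Lamp2, 0.24 with Ctsl, 0.05 with Lamp1, 0.03 with Tmem106b and -0.54 with Hexa. Grn 2 had an r of 0.30 with Hexa, 0.10 with Psap, 0.04 with Ctsl, -0.10 with Lamp1, -0.23 with Lamp2, -0.30 with Ctsd, -0.47 with Tmem106b and -0.68 with Ctsb, and its r with Grn 1 was -0.43.

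The same arrays also differed in markers of neighboring tissue, and here too the slide was not removed. A summed level is weighted towards its brightest probe, which for choroid plexus was Enpp2 (mean 15.89 in B6 and 16.18 in BTBR mice). The next brightest was a probe of Clic6 (12.82 and 13.33). After removal of the strain means, the summed choroid plexus level had an r over the 8 arrays of 0.96 with Ctsl, 0.94 with Lamp2 1, 0.84 with Ctsd 1, 0.78 with Psap 1, 0.76 with Ctsb 1, 0.49 with Lamp1, -0.59 with Tmem106b 1 and -0.83 with Hexa. With the summed level of 14 hippocampal probes the r was -0.95 for Ctsd 1, -0.93 for Ctsb 1, -0.87 for Lamp2 1, -0.78 for Ctsl, -0.75 for Psap 1, -0.53 for Lamp1, 0.26 for Tmem106b 1 and 0.83 for Hexa. The summed oligodendrocyte level had an r of 0.85 with Lamp2 1, 0.80 with Lamp1, 0.79 with Ctsl, 0.70 with Ctsd 1, 0.67 with Ctsb 1, 0.34 with Psap 1, -0.43 with Tmem106b 1 and -0.63 with Hexa. With the astrocyte, neuron, thalamus and meninges lists the r values of these 8 probes ran from -0.80 to 0.72. These lists were picked for mention after their values were seen.

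For Grn 1 the r was 0.61 with the astrocyte list, 0.43 with choroid plexus, 0.34 with thalamus, 0.30 with meninges, 0.01 with oligodendrocytes, -0.12 with neurons and -0.66 with hippocampus. Between the strains, all 10 choroid plexus probes had a mean difference above 0 (median 0.38), all 18 thalamus probes were above 0 (median 0.66) and 13 of 14 hippocampal probes were below 0 (median -0.61). Limma called 0 probes of these 3 lists (7.61% of all probes), and 1, 0 and 4 of them had an unadjusted p under 0.05 (18.5% of all probes). The summed thalamus level exceeded its B6 range in BTBR replicate 1 alone (17.35, with 15.18, 14.95 and 15.09 in replicates 2 to 4). Only BTBR replicates 1 and 2 were above the B6 range for choroid plexus and below it for hippocampus. Their hippocampal levels were 16.41 and 16.27, with 17.47 and 17.06 in replicates 3 and 4. Of 12 meningeal probes 10 were above 0 (median 0.33), 1 was called, for Igf2, and 4 had an unadjusted p under 0.05. The part of these tissues in the differences at Grn and at the other members was not tested.

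The wider lysosomal pathway was read from 7 lists of 106 tested genes with 177 probes, none of them members. Limma called 6 probes higher and 12 lower, 10.2% of the 177 against 7.61% of all probes, and the median difference was 0.00. Without B6 replicate 1 the counts fell to 3 higher and 7 lower, and without BTBR replicate 1 to 4 higher and 7 lower. The 31 probes of 18 vacuolar ATPase subunits, which acidify the lysosome, ran from -0.28 to 0.21 and limma called 0 of them. An unadjusted p under 0.05 was seen for 1 of them and for 18.5% of all probes.

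The lowest value in the lists was at an enzyme that tags hydrolases for the lysosome. Gnptab and Gnptg encode subunits of the phosphotransferase that builds the mannose 6-phosphate signal. Gnptab was lower in BTBR mice by 1.37 at 1 probe (8 arrays, limma adjusted p 2.26e-06), while its other 2 probes stood at -0.18 and -0.15 (adjusted p 0.462 and 0.352). Gnptg fell by 0.97 (adjusted p 0.00137). The transcription factors of lysosomal genes were named for their role after their values were seen, and Tfeb (0.02, adjusted p 0.921), Mitf (0.04, adjusted p 0.913) and the 3 probes of Tfe3 (0.10, 0.04 and 0.02) were not called.

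Among glycosidases, sulfatases and lipid hydrolases 2 of 49 probes were higher and 4 lower (12.2% called, against 7.61% of all probes). Galc, the galactosylceramidase whose loss causes Krabbe disease, fell by 1.27 and 0.60 at 2 probes and was higher by 0.33 at the third (adjusted p 0.000897, 0.000267 and 0.0386). The fall of 0.60 was -1.43 with the processed signal and -0.40 in the deposited matrix. Manba, the beta-mannosidase, fell by 0.78 at 1 probe (adjusted p 0.00343) and stood at -0.12 at the other (adjusted p 0.592). Galns, a sulfatase of keratan sulfate breakdown, fell by 0.56 (adjusted p 0.0442), a call lost without any 1 of the 4 B6 arrays or BTBR replicate 1 (-0.51, -0.59, -0.58, -0.56 and -0.58), with the processed signal (adjusted p 0.0704) or with no filter on dim probes (adjusted p 0.058). Acp5, an acid phosphatase, rose by 0.40 (adjusted p 0.022), a call lost without B6 replicate 1 or 2 (0.35 and 0.40). The size at this dim probe was 1.32 from the processed signal, 0.25 in the deposited matrix and 0.39 with another background correction (normexp).

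Among 21 protease probes 2 were higher and 2 lower (19.0% called, against 7.61% of all probes). Ctsc, which activates serine proteases of immune cells, rose by 0.55 (adjusted p 0.0223), a call lost without B6 replicate 1 or 4 or BTBR replicate 1 or 2 (0.48, 0.53, 0.53 and 0.49). Ctss, a cysteine protease of microglia, fell by 0.69 (adjusted p 0.0244), a call lost without B6 replicate 1, 2 or 3 or BTBR replicate 1 or 4 (-0.61, -0.66, -0.73, -0.65 and -0.60). Ppt1, listed here although it is a thioesterase, was higher by 0.65 at 1 probe (adjusted p 0.000614) and lower by 0.43 at another (adjusted p 0.0232), with -0.33 and -0.11 at its other 2 probes.

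Membrane proteins and transporters had 0 of 39 probes higher and 4 lower (10.3% called, against 7.61% of all probes). Clcn7, the chloride-proton exchanger of the lysosome, fell by 0.77 (adjusted p 0.000551). Npc1, which exports cholesterol, fell by 0.36 (adjusted p 0.00636). Laptm5, a lysosomal protein of blood-derived cells and microglia, fell by 0.42 and 0.44 (adjusted p 0.0353 and 0.0371), and the first of these calls was lost without B6 replicate 1, 3 or 4 or BTBR replicate 1, 3 or 4 (-0.42, -0.39, -0.38, -0.37, -0.39 and -0.42) or with the processed signal (adjusted p 0.0551).

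The proteins that bind or cut progranulin had 2 of 16 probes higher and 0 lower (12.5% called, against 7.61% of all probes). Slpi, an inhibitor that binds progranulin and protects it from elastase, was 8.23 in B6 and 10.25 in BTBR mice, a rise of 2.03 (SE 0.17, adjusted p 8.5e-05), which ran from 1.596 to 3.307 over the alternatives, the highest with the processed signal. Mmp14, a membrane protease able to cleave progranulin, rose by 1.01 at 1 probe (SE 0.12, adjusted p 0.00077) and stood at 0.00 at the other (adjusted p 0.991). Sort1, the receptor that takes up progranulin, was named for its role after its values were seen, and its 4 probes gave -0.26, 0.08, 0.15 and 0.10 with adjusted p values of 0.45, 0.597, 0.675 and 0.752. The median difference of the meningeal probes was 0.33, and their part in the Slpi and Mmp14 differences was not tested.

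**Figure D4:**
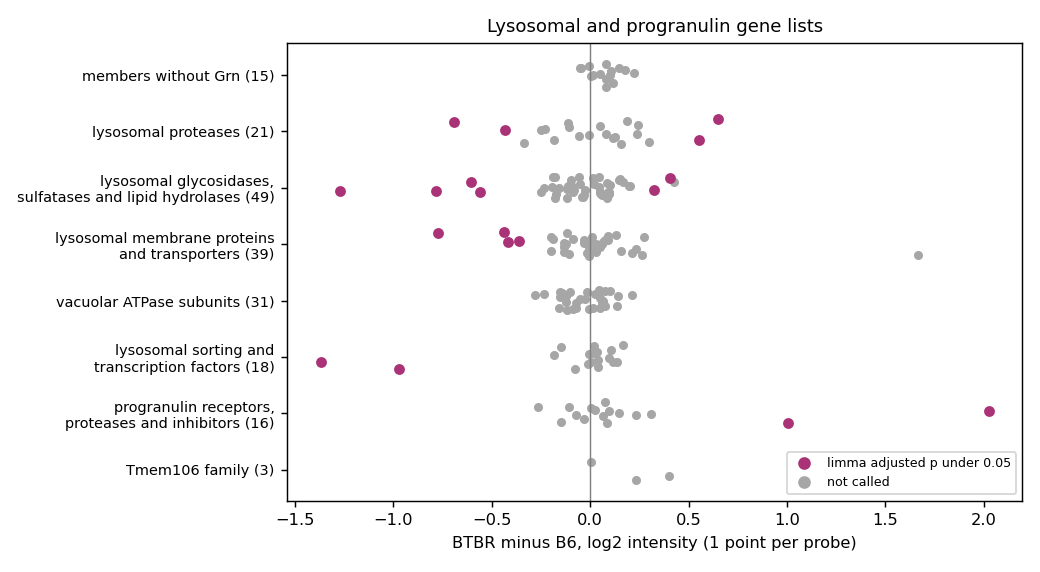
Difference between BTBR and B6 mice in log2 intensity (x axis, 1 point per probe) for the 15 lysosomal member probes and for 7 lists of lysosomal and progranulin genes (y axis, number of probes in brackets), with probes called by limma in color and a vertical scatter added for legibility. No member probe is called, and the called probes of the lists lie on both sides of 0.

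Microglia express Grn and many lysosomal genes, so their markers were read beside the members. Of 24 probes of 17 microglial genes 2 were higher and 7 lower (9 of 24 called, against 7.61% of all probes), and the summed level was 16.48 to 16.59 in B6 and 16.22 to 16.56 in BTBR mice. The 2 probes of Fcrls, a microglial receptor, were called in opposite directions (-1.16 and 1.09), and Cx3cr1, the fractalkine receptor, rose by 1.41 at 1 probe (adjusted p 1.11e-05) and stood at -0.10 at the other (adjusted p 0.669). The other called markers were lower in BTBR mice, and are named here after their values were seen. They were C1qb and C1qc of the complement (-1.01 and -0.57), Ptprc (-0.85), Tyrobp and Trem2 of a shared receptor complex (-0.74 and -0.60) and Itgam (-0.40, with -0.05 at its other probe). The list median was -0.05, with 5 of 24 probes above 0. C1qa (-0.05), the 3 probes of Csf1r (-0.01, 0.01 and 0.00), P2ry12 (-0.05), P2ry13 (0.03), the 2 of Selplg (-0.01 and 0.00) and Tmem119 (0.16) were among those not called. So were the 2 probes of Aif1 (-0.27 and -0.23), Siglech (-0.15) and Gpr34 (-0.03). After removal of the strain means, the r with the summed microglial level over the 8 arrays was 0.71 for Lamp2 1, 0.63 for Lamp1, 0.61 for Ctsl, 0.49 for Ctsb 1, 0.34 for Ctsd 1, 0.01 for Psap 1, -0.10 for Grn 1, -0.53 for Tmem106b 1 and -0.74 for Hexa. The part of microglia in the differences at these genes was not tested.

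Genes beside Grn on chromosome 11 were compared to see whether the rise extended along the locus. Within 500 kb of the Grn probes, 53 tested probes of 35 genes ran from -1.30 to 0.97, with a median of 0.06, and limma called 3 higher and 4 lower (13.2%, against 7.61% of all probes). The nearest, Fam171a2 at 3.7 kb, stood at -0.05 (adjusted p 0.855), and Slc25a39 at -27.9 and -30.1 kb stood at 0.20 and 0.21 (adjusted p 0.194 and 0.366). The called genes were Lsm12, Asb16, BC030867, Fzd2 and Gfap.

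Several of these neighbors again had probes that differed from each other, and those of Lsm12 and of Asb16 have different target transcripts in the array files. Lsm12, an RNA-binding protein, rose by 0.97 at 1 probe (adjusted p 0.000202) and stood at -0.08 at the other (adjusted p 0.659). Fzd2, a Wnt receptor, fell by 0.68 at 1 probe (adjusted p 0.000231) and stood at 0.49 at the other (adjusted p 0.1), and the fall was -2.90 with the processed signal and -0.38 in the deposited matrix. Asb16 rose by 0.39 (adjusted p 0.0138) with 0.07 at its other probe and 0.23 as their median (adjusted p 0.0674), and BC030867 rose by 0.39 (adjusted p 0.0403), a call lost without any of 7 arrays (BTBR replicate 3 being the exception), with values from 0.31 to 0.41, or with median centring (0.39, adjusted p 0.0739). With the processed signal Asb16 gave 0.77 and BC030867 0.59. Gfap, the intermediate filament of astrocytes, fell at all 3 of its probes in this window, by 1.30, 0.57 and 0.49 (adjusted p 0.00143, 0.00603 and 0.0355).

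**Figure D5:**
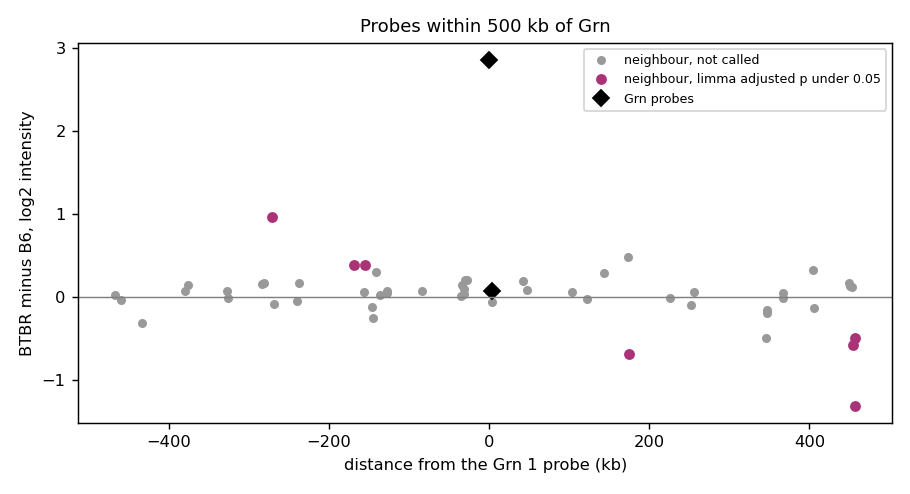
Difference between BTBR and B6 mice in log2 intensity (y axis) of the tested probes within 500 kb of Grn against their distance from the Grn 1 probe in kb (x axis), with diamonds for the Grn probes and color for neighbors called by limma. Grn 1 at 2.86 lies above all neighbors, which run from -1.30 to 0.97.

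Many lysosomal genes carry a palindromic motif bound by TFEB near their start, and the promoters of the members (250 bases before to 50 bases after the start, RefSeq, GRCm38.p6) were searched for it. The 10-letter palindrome GTCACGTGAC was in 0 of the 9 member promoters and in 0.326% of 32851 promoters, too rare for 0 of 9 to set the members apart. Its core CACGTG, which is also its own reverse complement, was in 3 of the 9 (33.3%) and in 7.15% of all promoters. These 9 promoters belong to 8 of the 9 genes, Psap having 2, and Ctsb had no entry in the promoter set used. The sites were in Ctsd (2), Lamp1 (4) and Ctsl (1), and these letters were not in the Grn window. The stretches below, with the core in capitals, are shown for those 3 genes, at chr8:13159088-13159163 on the plus strand for Lamp1, and at chr7:142387908-142387937 and chr13:64370739-64370768 on the minus strand for Ctsd (1 of its 2 sites) and Ctsl.
Lamp1: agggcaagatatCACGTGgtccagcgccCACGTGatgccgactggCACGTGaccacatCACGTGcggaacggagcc
Ctsd: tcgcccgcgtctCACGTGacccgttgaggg
Ctsl: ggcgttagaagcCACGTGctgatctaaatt
The brightest probes of these 3 genes differed between the strains by 0.15, 0.10 and 0.22, and none was called. A match of letters, or the lack of an exact match, is a description of the sequence and says nothing of binding in this tissue.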

How the data were processed

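Hippocampal RNA from 8 mice was hybridized to single-color Agilent 4X44K arrays. The intensity values were deposited by the authors and, per the file headers, came from Agilent Feature Extraction 10.7.3.1, unscaled between arrays. The deposited matrix holds log2 values that the authors quantile normalized and was used as an alternative. Here, each spot's median local background was taken off its mean intensity, the result was floored at 0.5 and raised by 50, and its log2 was quantile normalized, with replicate spots taken by their median. A probe was kept if it had no outlier flag and if 75% or more of either strain's arrays read it as well above background. Limma 3.58.1 in R 4.3.3 fitted strain alone, with Benjamini-Hochberg adjustment over 27982 probes and a threshold of 0.05, and was tested on simulated data. The study's rank product permutes probes and was not used. Probes of a gene were numbered as in Grn 1 and Grn 2 and kept apart. Named genes were all members, up to 4 called genes per pathway list (smallest adjusted p) and 2 per cell list, the 5 most like Grn 1 and up to 5 called neighbors. The members and lists were chosen with earlier results of these data known. Alternatives covered background, scaling, the filter, flags, moderation, blocks, the threshold and each array left out. Sequences came from the array files and from RefSeq. P-values measure the spread between 4 mice per strain, and the number of arrays limits precision.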

Additional observations from a re-analysis of the deposited data

Results flagged for a closer look

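Of 90 groups of 4 arrays examined (both strains at each probe named, without Grn), 2 held an array whose gap to the nearest other exceeded the 95% critical share of the group's range (Dixon's test), and chance alone marks about 1 group in 20. At Lamp2 1, B6 replicate 4 stood at 12.39 and the others at 12.74 to 12.81, a gap of 0.83 of the range, and this array also had the lowest choroid plexus level (15.63). At Syt10, the gene most like Grn 1, BTBR replicate 3 stood at 10.97 and the others at 11.83 to 11.84, a gap of 0.987 of the range.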

How the results depend on the processing

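Over 19 settings and 15 lysosomal member probes, 0 of 285 values were called, the lowest adjusted p was 0.0967 and the differences ran from -0.12 to 0.30. In 17 of the 285 the sign changed, at Tmem106b, Ctsb, Psap 1 and Lamp2 2. Settings that altered only the filter, the flags, the moderation or the blocks left each difference as it was, so they could not change a sign. When each gene was given the median of its probes, the difference at Tmem106b 1 and the difference at Tmem106b 3 became 0.016, the difference at Ctsb 1 became -0.0017, Galc gave 0.19, Ppt1 gave -0.38 (adjusted p 0.0141) and Grn gave 1.47. Median centring gave -0.0085 for the difference at Tmem106b 2, -0.044 for Ctsb 1 and -0.0086 for the difference at Lamp2 2, and the processed signal gave 0.0085 for the difference at Ctsb 2. With each array left out, the range was -0.0094 to 0.039 at Tmem106b 2, -0.047 to 0.063 at Ctsb 1, -0.024 to 0.017 at Ctsb 2, -0.0082 to 0.15 for the difference at Psap 1 and -0.0069 to 0.15 at Lamp2 2. Leaving out arrays gave 3 to 7 pathway probes higher and 7 to 13 lower, and 1533 to 2183 of all probes. At an adjusted p under 0.01, 1196 probes were called in place of 2129. The replicate numbers gave no clear pairing of the mice (correlations of -0.14, 0.51, -0.10 and 0.39 between same-numbered arrays). The same-numbered array was the best partner for replicates 2 and 4 and not for 1 and 3. The fit with the replicate block had 1650 as the count of all probes called, 0 members, and 4 pathway probes higher and 10 lower. Under that block the calls of Acp5 (adjusted p 0.0926), Laptm5 (0.11), Igf2 (0.0924), Asb16 (0.051) and BC030867 (0.101) were lost. Among the other named genes the difference moved by over 1.5 times at 7 probes with the processed signal, 3 in the deposited matrix and 15 with the median of a gene's probes. The causes of these shifts were not tested.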

Other observations

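Marker lists of other cells were read against the 7.61% of all probes that limma called. Of 24 neuronal marker probes 4 were called lower and 0 higher in BTBR mice (16.7%), with 10 above 0 and a median of -0.07. Nefl, the light chain of neurofilaments, fell by 1.93 at 1 probe and 0.65 at the other (limma adjusted p 2.83e-06 and 0.00281). Syt1, a calcium sensor of synaptic vesicles, fell by 0.71 at 1 of 6 probes (adjusted p 0.0134), and its others ran from -0.29 to 0.03. Named after their values were seen, Gad1, Gad2, Tubb3 and Snap25 lay above 0 at every probe (0.09 to 0.47) and were not called. Of 21 astrocyte probes 4 were called lower, for Gfap and Aldoc, and 0 higher (19.0%), with 7 above 0 and a median of -0.17. Aldoc, a glycolytic enzyme of astrocytes, fell by 0.61 at 1 probe (adjusted p 0.00506) and stood at -0.17 at the other (adjusted p 0.346). Fgfr3, Gjb6 and Aldh1l1, also named after their values were seen, were above 0 at every probe (0.07 to 0.19) and not called. Of 18 oligodendrocyte probes limma called 0, with 2 at an unadjusted p under 0.05 (18.5% of all probes) and differences from -0.52 to 0.72. Of 12 meningeal probes 1 was higher (8.33%), for Igf2 (1.24, adjusted p 0.0333, with 1.29 and adjusted p 0.065 at its other probe), a call lost without B6 replicate 1, 2 or 4 or BTBR replicate 1, 2 or 4 (1.11, 1.31, 1.08, 1.10, 1.15 and 1.29).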
